A study of Mus musculus with 48 samples.

Results

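Genes of the epithelial sodium channel and of 3 proteins that set its number at the cell surface were followed in mouse kidney. Their transcripts and ribosome footprints were measured through the day, and no protein was measured. The genes were chosen by name and function, with earlier results of these data known, as the channel subunits Scnn1a, Scnn1b and Scnn1g, the kinase Sgk1, the ubiquitin ligase Nedd4l and the deubiquitinase Usp2. All 6 were found, among 12423 genes listed in both assays, and all 6 were among the 11863 genes that had a median of at least 0.5 RPKM in each assay and were tested. The kidneys came from male C57BL/6JRj mice of 11-12 weeks, untreated and with no genotype named beyond the strain, kept in alternating light and dark with ZT00 at lights-on and ZT12 at lights-off. Every 2 h, at 12 timepoints, 2 replicate pools were made, each from the lysates of 2 mice. The authors collected the organs over 2 daily cycles, and the labels do not say from which cycle a replicate came. Each of the 24 pools gave 1 RNA-seq library, which measured transcript abundance, and 1 RPF-seq library of the fragments that ribosomes protect from nuclease, which measured translation, 48 libraries in all.

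The channel, called ENaC, is a heteromer of alpha, beta and gamma subunits encoded by Scnn1a, Scnn1b and Scnn1g. It lets sodium enter principal cells of the late distal tubule and collecting duct, and it is known as the site at which aldosterone adjusts sodium excretion and blood pressure. Nedd4l binds a proline-rich PY motif in the tail of each subunit and marks the channel for removal from the membrane. Sgk1, whose gene is induced by corticosteroids, phosphorylates Nedd4l and weakens that binding, and Usp2 removes ubiquitin and is under control of the circadian clock.

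The PY motif codons of the subunits are shown because they are where Nedd4l meets the channel. Each stretch lies in coding sequence, on the plus strand of GRCm38 with GENCODE vM21 models, and the capitals mark the 4 codons for proline, proline, any residue and tyrosine. They were found at codon 671 of 700 in Scnn1a (chr6:125343987-125344016), codon 615 of 638 in Scnn1b (chr7:121917976-121918005) and codon 630 of 655 in Scnn1g (chr7:121767460-121767489).
Scnn1a: acagcccctCCACCTGCCTATgctacccta
Scnn1b: gggactccaCCCCCCAACTATgactccctg
Scnn1g: ggcacaccaCCCCCCAGATACaataccttg
Of the 12 motif bases, 9 were identical between Scnn1b and Scnn1g, 8 between Scnn1a and Scnn1b, and 6 between Scnn1a and Scnn1g. In each subunit the motif was the only one of its kind in the coding sequence and stood 20 to 26 codons before the end.

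Promoter windows, 250 bases before to 50 after a start site, were available from RefSeq (GRCm38.p6) for 4 of the 6 genes, with 6 windows for Sgk1 and 1 each for Scnn1b, Scnn1g and Usp2. They were searched on both strands for the clock-related motifs CACGTG, TTATGTAA, TTATGCAA and TAGGTCA and for the glucocorticoid element (GNACA, then 3 bases of any kind, then TGTNC), motifs that do not overlap in the window shown. A single window held any of them, the one at the start of Sgk1-202 (start site 21993890), and it is printed because Sgk1 had the largest rhythm of the 6 genes. Its 250 bases before the start site, chr10:21993640-21993889 on the plus strand, are given with the matching bases in capitals.
Sgk1: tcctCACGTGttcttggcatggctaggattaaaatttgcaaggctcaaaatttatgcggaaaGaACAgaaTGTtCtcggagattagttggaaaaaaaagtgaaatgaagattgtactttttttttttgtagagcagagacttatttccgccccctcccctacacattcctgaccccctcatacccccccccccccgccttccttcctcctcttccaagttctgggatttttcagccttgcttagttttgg
The CACGTG begins 246 bases and the glucocorticoid element 188 bases before the start site. Of all 32851 RefSeq promoter windows, 7.15% held CACGTG, 0.475% held the glucocorticoid element and 12 windows held both. TTATGTAA was in 0.938%, TTATGCAA in 0.743% and TAGGTCA in 2.61% of the windows. The deposited values do not separate start sites. The coding length recovered for Sgk1, 1327 bases, equals the union of Sgk1-201 with Sgk1-203 or Sgk1-212, and no pair of transcripts with Sgk1-202 had that length, so the values need not include transcripts from the start shown. The matches are descriptions of sequence only.

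Scnn1b and Scnn1g are neighbours on the plus strand of chromosome 7, at 121865038 to 121918514 and 121734479 to 121768475. Scnn1a lies on chromosome 6 from 125320659 to 125344943, Sgk1 on chromosome 10 from 21882184 to 21999903, Nedd4l on chromosome 18 from 64887705 to 65217828 and Usp2 on chromosome 9 from 44067021 to 44095627, all on the plus strand.

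The authors deposited 1 RPKM value per gene and library, a read count per length of coding sequence and per library size, after scaling by upper quantiles. For the 6 genes all 48 values each were whole multiples of what 1 read is worth, to within 0.1 reads, so the reads behind them could be recovered. For the 6 genes the median was between 630 reads (Scnn1b) and 2055 reads (Nedd4l) in RNA-seq and between 1163.5 reads (Scnn1g) and 2990.5 reads (Nedd4l) in RPF-seq, and the lowest single value rested on 339 reads. Relative depth ran from 0.598 to 2.04 across the RNA-seq libraries and from 0.701 to 1.58 across the RPF-seq libraries. Replicates of Sgk1 in RNA-seq differed with a coefficient of variation of 19.0%, against 3.15% from counting alone, whereas those of Nedd4l differed by 2.78% against 2.21%. The RNA-seq libraries of replicate 2 at ZT10 and ZT12 and the RPF-seq libraries of replicate 2 at ZT04 and ZT16 lay farthest from the fitted curves of all genes, with root mean square residuals of 0.268, 0.282, 0.414 and 0.339 on the log2 scale, against 0.163 to 0.239 for the other RNA-seq and 0.178 to 0.257 for the other RPF-seq libraries. The RPF-seq library of ZT04 replicate 2 also listed 162 genes at 0. Test results that rest on these libraries are given with and without them, whereas correlations between genes are given with all libraries only.

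The labelled tissue fitted the markers. Of 7 principal cell markers all were listed, among them the water channel Aqp2 at a mean of 124 RPKM in RNA-seq and 216 RPKM in RPF-seq, and the distal convoluted tubule cotransporter Slc12a3 stood at 299 and 368 RPKM. None of the 4 adrenal cortex markers was listed in either assay. Markers of adipose tissue, liver and blood were listed and varied between libraries. In RNA-seq Adipoq ranged from 0.128 to 3.98 RPKM, Alb from 4.72 to 24.4 RPKM and the blood marker Hba-a1 from 24.6 to 180 RPKM. By the rule for rhythms given below, Adipoq and Alb were called in both assays. The part of such tissue in the results was not tested. The summed RNA level of the principal cell markers ranged from 267 to 371 RPKM (median 313) in the 12 light-phase libraries (ZT00 to ZT10) and from 249 to 394 RPKM (median 307) in the 12 dark-phase libraries (ZT12 to ZT22, the first taken at lights-off). Their summed footprint level ranged from 585 to 765 RPKM (median 673) in the light and from 627 to 1037 RPKM (median 743) in the dark. In a whole organ, fewer cells of a type and less RNA per cell cannot be told apart.

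**Figure D1:**
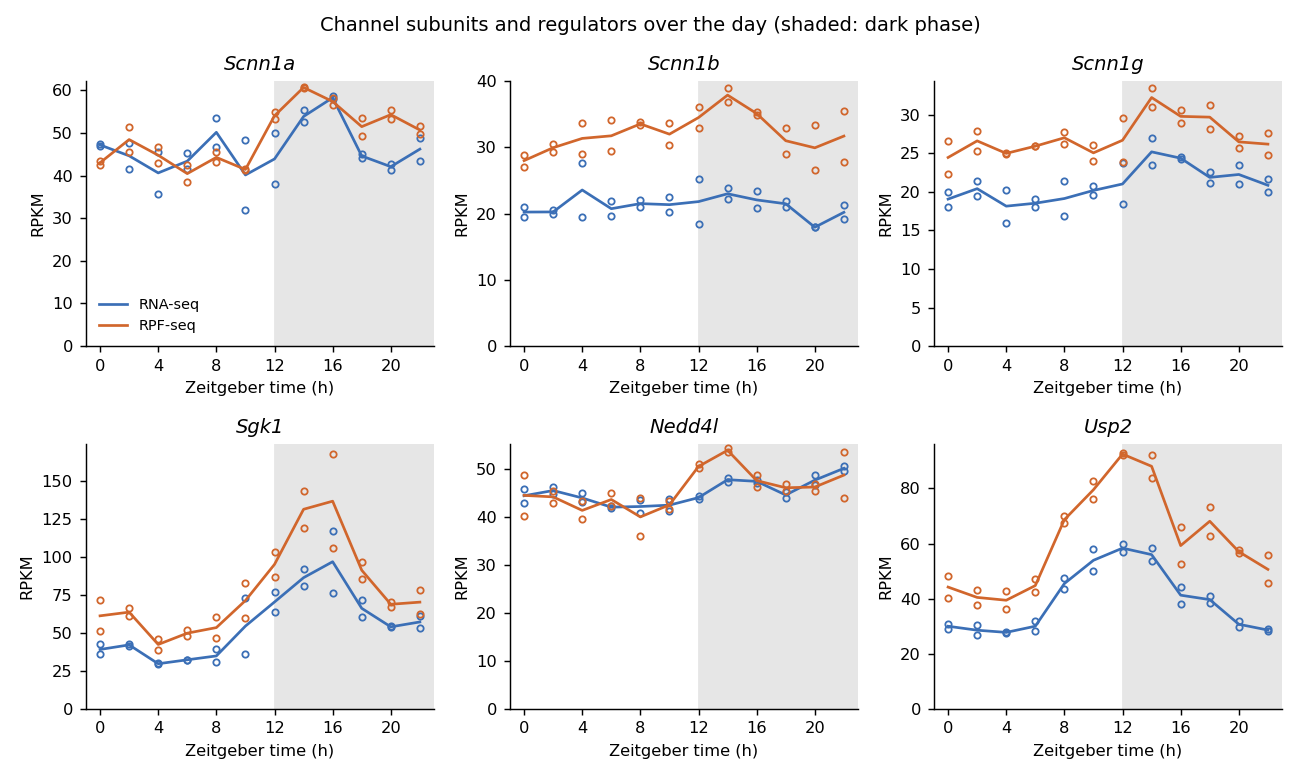
RPKM of each gene (vertical axis, from 0) against Zeitgeber time in hours, with circles for the 2 replicate pools and lines through their means, blue for RNA-seq and orange for RPF-seq. Sgk1 and Usp2 swing widely, from 29.7 to 97.0 RPKM and from 27.7 to 58.3 RPKM in RNA-seq timepoint means, while Nedd4l stays between 42.0 and 50.1 RPKM.

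Sgk1 and Usp2, a kinase that keeps the channel at the surface and a deubiquitinase, were the rhythmic members of the group at transcript and footprint level, and the channel subunits and Nedd4l moved within narrower bounds. A rhythm was called where the 24-h cosine of log2(RPKM + 0.1) passed limma's moderated F test at an adjusted p (Benjamini-Hochberg over all tested genes) under 0.05 and the fitted peak was at least 1.5-fold above the trough. By this rule 2 of 6 genes were called in RNA-seq, where 10.2% of all tested genes were called, and the same 2 of 6 in RPF-seq, where 7.58% were. Without the fold limit 4 of 6 passed in RNA-seq (48.6% of all tested genes) and 6 of 6 in RPF-seq (30.9%). The median fitted fold of the 6 genes was 1.22 in RNA-seq and 1.27 in RPF-seq, against 1.20 and 1.18 over all tested genes.

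Sgk1 transcripts were lowest at ZT04, with 29.5 and 29.9 RPKM in the 2 replicates, and highest at ZT16, with 117 and 76.6 RPKM. In the light phase the 12 RNA-seq libraries ranged from 29.5 to 72.9 RPKM with a median of 36.0, and in the dark phase from 53.1 to 117 RPKM with a median of 68.1. The light-phase maximum was ZT10 replicate 2, one of the libraries that stood apart, whose replicate 1 held 36.2 RPKM. With that library the 2 phases overlapped, and without it every dark-phase library (12 of 12) was above every light-phase library, which then reached at most 42.9 RPKM. The RPF-seq library of the same pool was not among those that stood apart, and it was also the light-phase maximum of Sgk1 in its assay. The cause of the overlap was not tested. The fitted fold was 2.64 (1.40 ± 0.15 on the log2 scale, SE) with a peak at ZT15.98 ± 0.40 h, and the adjusted p was 3.0e-07 (limma). Among the 11863 tested genes this fold ranked 65 from the top.

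Sgk1 footprints followed the same course, from 38.5 and 46.3 RPKM at ZT04 to 168 and 106 RPKM at ZT16. The light-phase libraries ranged from 38.5 to 82.8 RPKM with a median of 55.9, and the dark-phase libraries from 62.5 to 168 RPKM with a median of 91.9. In 8 of 12 dark-phase libraries the level exceeded every light-phase value. The light-phase maximum was again the pool of ZT10 replicate 2, and without it 9 of 12 dark-phase libraries were above every light-phase library. The fitted fold was 2.43 (1.28 ± 0.15 on the log2 scale, SE) with a peak at ZT15.7 ± 0.5 h and an adjusted p of 3.5e-06 (limma). The footprint peak differed from the transcript peak by -0.31 h, with a 95% interval from -0.75 to 0.13 h, so that no shift was detectable. Without the libraries that stood apart the folds were 2.60 in RNA-seq and 2.45 in RPF-seq.

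Usp2 rose earlier. Its transcripts were lowest at ZT04, with 28.0 and 27.5 RPKM, already held 43.4 and 47.5 RPKM at ZT08, and were highest at ZT12, with 56.8 and 59.9 RPKM. Light-phase libraries ranged from 26.8 to 57.9 RPKM (median 30.6) and dark-phase libraries from 28.2 to 59.9 RPKM (median 39.6), so the phases overlapped widely, the rise beginning well before lights-off and the fall ending by ZT20. The fitted fold was 2.09 (1.06 ± 0.09 on the log2 scale, SE), the peak fell at ZT12.5 ± 0.3 h and the adjusted p was 4.0e-09 (limma). At every timepoint the replicates differed by at most 1.16-fold.

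Usp2 footprints went from 42.6 and 36.2 RPKM at ZT04 to 92.9 and 92.0 RPKM at ZT12. Transcripts, on a scale of their own, had 44.3 and 38.2 RPKM at ZT16 and 38.5 and 40.8 RPKM at ZT18. Footprints had 66.0 and 52.6 RPKM at ZT16 and 73.3 and 62.9 RPKM at ZT18. The fitted fold was 2.11 (1.08 ± 0.11 on the log2 scale, SE) with a peak at ZT13.3 ± 0.4 h and an adjusted p of 3.0e-07 (limma). The footprint peak of the 24-h curve lay 0.81 h after the transcript peak (95% interval 0.31 to 1.31 h), but with a 12-h term added the order turned, with peaks at ZT11.7 for footprints and ZT12.0 for transcripts. The coding length behind the values, 2075 bases, equals the union of all annotated Usp2 coding isoforms, so its long and short isoforms cannot be told apart.

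**Figure D2:**
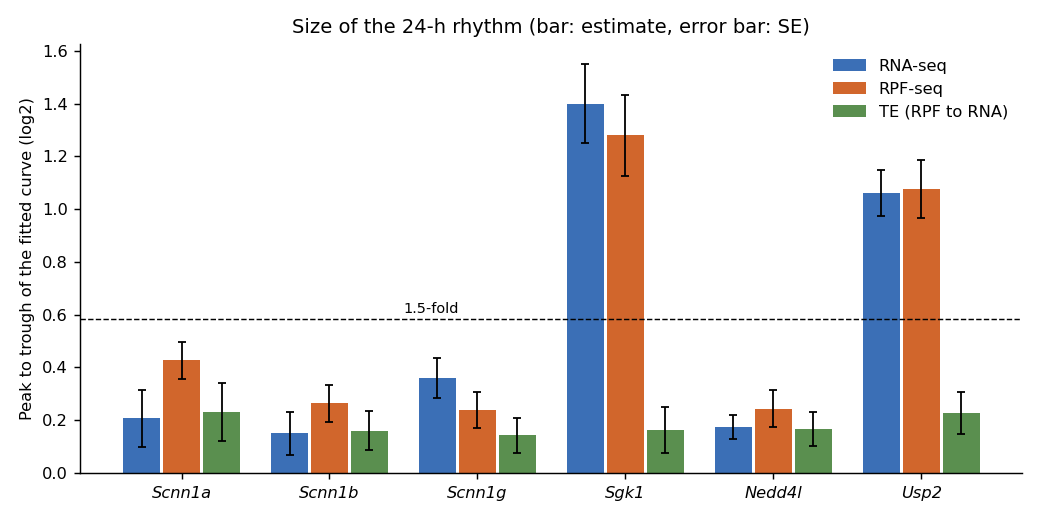
Peak to trough of the fitted 24-h curve on the log2 scale (bars from 0, error bars SE) for each gene, in colours for the 2 assays and their ratio TE, with a dashed line at 1.5-fold. Sgk1 and Usp2 pass the line in RNA-seq and RPF-seq, with log2 values from 1.06 to 1.40, and the highest bar of the other 4 genes is the 0.43 of Scnn1a in RPF-seq.

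Among the channel subunits, Scnn1a had the clearest footprint rhythm. Its footprints ranged from 38.5 to 51.4 RPKM (median 43.0) in the light and from 49.4 to 60.8 RPKM (median 54.2) in the dark, and 10 of 12 dark-phase libraries were above every light-phase library. The lowest timepoint was ZT06, with 38.5 and 42.5 RPKM, and the highest ZT14, with 60.6 and 60.8 RPKM. The fitted fold of 1.34 (0.43 ± 0.07 on the log2 scale, SE) stayed under the 1.5-fold limit, with a peak at ZT16.8 ± 0.6 h and an adjusted p of 2.4e-04 (limma). Without replicate 1 the adjusted p was 0.057 and without replicate 2 it was 0.043.

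Scnn1a transcripts ranged from 32.0 to 53.5 RPKM (median 46.2) in the light and from 37.9 to 58.7 RPKM (median 47.0) in the dark, and their fitted fold was 1.15 with an adjusted p of 0.26 (limma). The lowest values of the phases were those of ZT10 and ZT12 replicate 2, 32.0 and 37.9 RPKM, whose first replicates held 48.3 and 49.9 RPKM. Without these 2 libraries the fold was 1.23, the peak ZT13.6 and the adjusted p 0.011 (limma), so the transcript result for Scnn1a depends on them.

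Scnn1b, the beta subunit, ranged from 17.9 RPKM at ZT20 to 27.6 RPKM at ZT04 in RNA-seq, with a fitted fold of 1.11 and an adjusted p of 0.28 (limma). Without the RNA-seq libraries of ZT10 and ZT12 replicate 2 the fold was 1.18 and the adjusted p 0.0503 (limma). The replicates at ZT04 differed by 1.41-fold (27.6 against 19.6 RPKM). Its footprints went from 28.9 and 27.1 RPKM at ZT00 to 36.8 and 39.0 RPKM at ZT14. The footprint fold was 1.20 with a peak at ZT12.6 ± 1.0 h and an adjusted p of 0.018 (limma), which did not hold without the ZT00 or the ZT14 libraries (0.068 and 0.090). The fitted footprint peak was at ZT14.8 without replicate 1 and at ZT11.0 without replicate 2.

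Scnn1g, the gamma subunit, had its lowest transcript level at ZT04, 20.3 and 16.003 RPKM, and its highest at ZT14, 26.9 and 23.4 RPKM. In 8 of 12 dark-phase libraries it exceeded every light-phase library. The fold was 1.28 with a peak at ZT16.3 ± 0.8 h and an adjusted p of 0.0015 (limma), which did not hold without replicate 2 (0.081) or with time as a factor (0.12). Footprints went from 26.5 and 22.4 RPKM at ZT00 to 33.5 and 31.0 RPKM at ZT14, with a fold of 1.18, a peak at ZT15.4 ± 1.1 h and an adjusted p of 0.028 (limma). The footprint result for Scnn1g did not pass without the RPF-seq library of ZT14 replicate 1, ZT14 replicate 2, ZT16 replicate 1 or ZT18 replicate 1 (adjusted p 0.068, 0.055, 0.056 and 0.050018), nor without the timepoints ZT04, ZT14, ZT16 or ZT18 (0.058, 0.13, 0.074 and 0.065).

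Nedd4l transcripts had the smallest spread between libraries relative to their level. Their 24 RNA-seq values ranged from 40.8 to 50.6 RPKM, with timepoint means from 42.0 at ZT06 to 50.1 at ZT22. That course gave a fold of 1.13 with a peak at ZT19.4 ± 1.0 h and an adjusted p of 0.0080 (limma), which did not hold without replicate 1 (0.12), without replicate 2 (0.37) or with time as a factor (0.079). Footprints ranged from 36.0 to 54.3 RPKM and were highest at ZT14, with 54.3 and 53.4 RPKM. Their fold was 1.18, the peak ZT16.6 ± 1.1 h and the adjusted p 0.027 (limma), which did not hold without the RPF-seq library of ZT04 replicate 2, ZT14 replicate 1 or ZT14 replicate 2 (adjusted p 0.051, 0.053 and 0.051), nor without the timepoints ZT04 or ZT14 (0.069 and 0.093). The fitted footprint peak differed from the transcript peak by -2.87 h (95% interval -5.02 to -0.72 h), and the TE test reported next gave an adjusted p of 0.14.

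With time as a factor, or with replicate 1 left out, the footprint results of Scnn1b, Scnn1g and Nedd4l did not pass (adjusted p 0.15 to 0.39, limma), and with replicate 2 left out Scnn1b alone of these did (0.039).

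In RPF-seq the highest timepoint mean of all 3 subunits and of Nedd4l was at ZT14, against ZT16 for Sgk1 and ZT12 for Usp2. In RNA-seq it was ZT16 for Scnn1a, ZT04 for Scnn1b, ZT14 for Scnn1g and ZT22 for Nedd4l.

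Translation efficiency (TE) was the ratio of RPF to RNA RPKM of the same pool, and its rhythm tests whether footprints and transcripts of a gene ran differently over the day. By limma 0 of 6 genes had a called TE rhythm, against 3.74% of all tested genes with the 1.5-fold limit and 17.1% without it. At an unadjusted p under 0.05 there were 2 of 6, a share near that of all tested genes (4029 of 11863), Usp2 with a TE fold of 1.17 (adjusted p 0.10) and Nedd4l with 1.12 (adjusted p 0.14), and AIC selection called 0 of 6. The median TE fold was 1.12 for the 6 genes and 1.19 over all tested genes. For Usp2 the TE peak was fitted at ZT18.7 ± 1.3 h, and TE was between 1.32 (ZT04 replicate 2) and 1.92 (ZT22 replicate 1). Usp2 passed an adjusted p of 0.05 when the pool of ZT16 replicate 2 was left out (TE fold 1.20, adjusted p 0.044) or the whole of ZT16 was (1.23, 0.027), and Scnn1a when the 4 libraries that stood apart were (1.27, adjusted p 0.024), all below 1.5-fold.

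**Figure D3:**
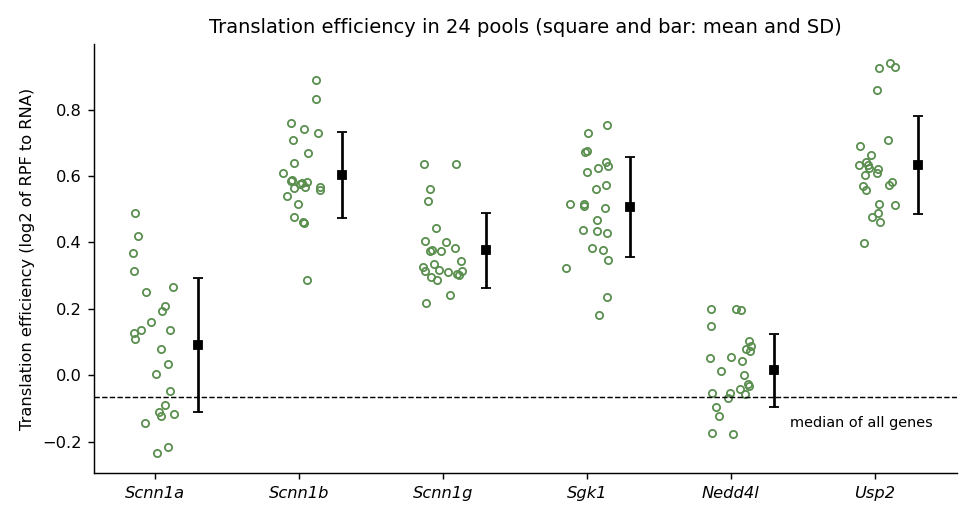
Translation efficiency of each gene in the 24 pools (circles, log2 of RPF to RNA), with squares and bars for mean and SD and a dashed line at the median of all tested genes. Usp2 and Scnn1b have the highest means, 0.63 and 0.60, and Nedd4l and Scnn1a the lowest, 0.01 and 0.09.

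In level, TE separated the subunits. The beta subunit transcript carried the most footprints per transcript, with a log2 TE of 0.60 ± 0.13 (SD, n = 24), then gamma with 0.38 ± 0.11 and alpha with 0.09 ± 0.20. In linear terms the TE of Scnn1b ranged from 1.22 to 1.85, that of Scnn1g from 1.16 to 1.55 and that of Scnn1a from 0.849 to 1.40. Scnn1b exceeded Scnn1a by 0.51 ± 0.04 (SE) on the log2 scale, a ratio of 1.43, in 24 of 24 pools. Scnn1g exceeded Scnn1a by 0.28 ± 0.05, a ratio of 1.22, in 20 of 24 pools, and Scnn1g was below Scnn1b in 21 of 24 pools with a difference of -0.23 ± 0.04. The permutation p was 1e-05 for the pairs with Scnn1a, the smallest that 100000 sign changes can give, and 2e-05 for the pair of Scnn1b and Scnn1g (adjusted over 3 pairs, 1.5e-05, 1.5e-05 and 2.0e-05).

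Of the regulators, Usp2 had a log2 TE of 0.63 ± 0.15, Sgk1 of 0.51 ± 0.15 and Nedd4l of 0.01 ± 0.11 (SD, n = 24). Among all tested genes 85.2% had a lower mean TE than Usp2, 83.9% than Scnn1b, 79.4% than Sgk1, 73.3% than Scnn1g, 58.2% than Scnn1a and 54.1% than Nedd4l. A ratio of RPKM across assays is relative, since each assay was scaled on its own.

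The order of levels therefore differed between the assays. In RNA-seq the means over 24 libraries were 55.4 ± 22.9 RPKM for Sgk1, 46.3 ± 6.5 for Scnn1a, 45.1 ± 2.7 for Nedd4l, 39.2 ± 11.6 for Usp2, 21.2 ± 2.3 for Scnn1b and 20.9 ± 2.6 for Scnn1g (SD, all times of day pooled). The pairs tested in each assay were neighbours in the order of its means, and the spread of their differences includes time of day. Beyond that spread Sgk1 and Scnn1a did not differ in RNA-seq (ratio 1.12, adjusted permutation p 0.21). Nor did Scnn1a and Nedd4l (1.02, 0.58) or Scnn1b and Scnn1g (1.02, 0.59). Nedd4l was above Usp2 in 17 of 24 libraries (ratio 1.20, adjusted permutation p 0.013) and Usp2 above Scnn1b in 24 of 24 (ratio 1.78, 3.3e-05).

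In RPF-seq the means were 78.1 ± 31.9 RPKM for Sgk1, 61.0 ± 18.4 for Usp2, 49.3 ± 6.6 for Scnn1a, 45.7 ± 4.6 for Nedd4l, 32.2 ± 3.3 for Scnn1b and 27.1 ± 2.7 for Scnn1g (SD, n = 24). All 5 neighbouring pairs differed here, with adjusted permutation p-values between 3.3e-05 and 0.0057 over the 10 pairs of both assays. Sgk1 was above Usp2 in 19 of 24 libraries (ratio 1.25), Usp2 above Scnn1a in 17 (1.20) and Scnn1a above Nedd4l in 18 (1.07). Nedd4l was above Scnn1b in all 24 (ratio 1.42) and Scnn1b above Scnn1g in 23 (1.19). With 1 replicate series left out, the pairs that passed in both series were Usp2 with Scnn1b in RNA-seq, and Nedd4l with Scnn1b and Scnn1b with Scnn1g in RPF-seq.

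**Figure D4:**
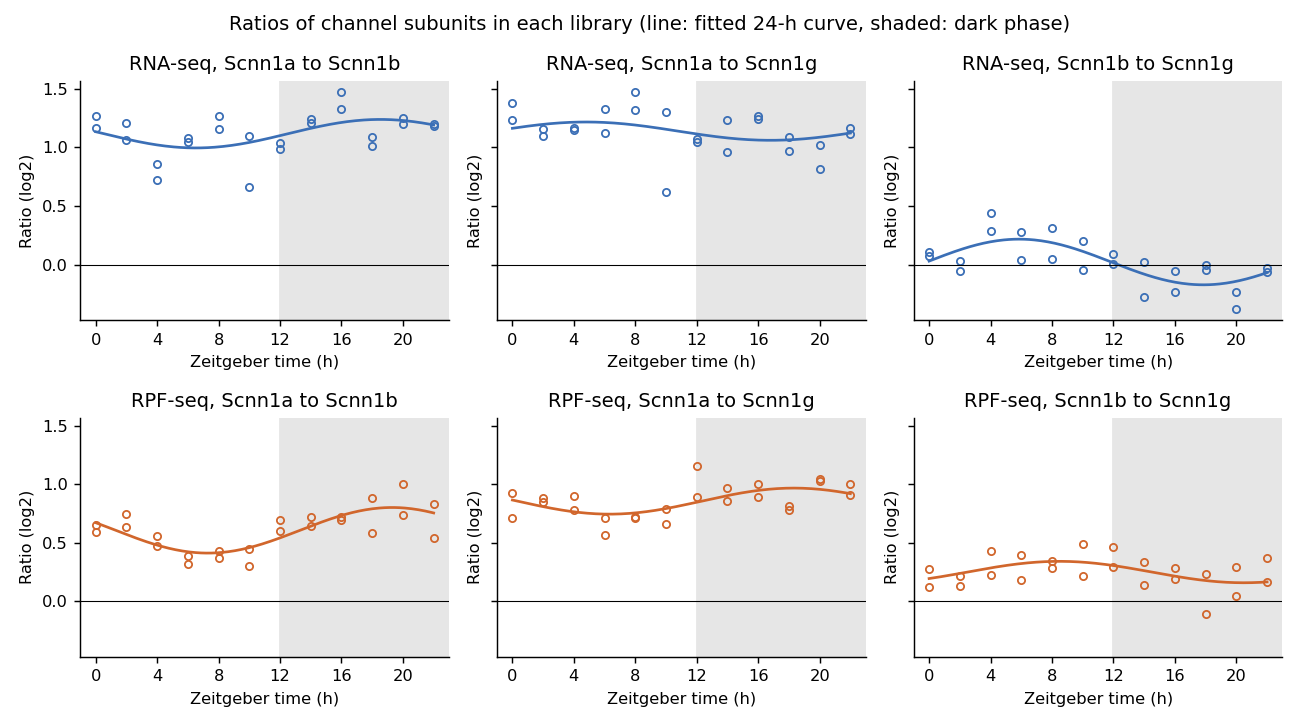
Log2 ratio of each pair of channel subunits in each library (circles) against Zeitgeber time in hours, RNA-seq in the upper and RPF-seq in the lower row, with the fitted 24-h curve. The curves of Scnn1b to Scnn1g in RNA-seq and Scnn1a to Scnn1b in RPF-seq swing the most, each by 0.39 from peak to trough.

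The proportion of the subunits was the next question, since the channel is built from all 3. Scnn1a transcripts were a median of 2.24 times those of Scnn1b (range 1.58 to 2.78) and 2.22 times those of Scnn1g (1.54 to 2.77), while Scnn1b and Scnn1g were nearly equal (1.01, range 0.768 to 1.36). In footprints the alpha excess was smaller, 1.53 times Scnn1b (1.23 to 2.00) and 1.82 times Scnn1g (1.48 to 2.23), and Scnn1b stood at 1.19 times Scnn1g (0.928 to 1.40).

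Over the day 3 of the 6 ratios moved, none of which passed in both replicate series taken alone. The transcript ratio of Scnn1b to Scnn1g had a fold of 1.31 (R2 0.53) with a peak at ZT5.9, with a permutation p of 0.00017, adjusted 0.00051. The footprint ratio of Scnn1a to Scnn1b had a fold of 1.31 (R2 0.62) with a peak at ZT19.3, with a permutation p of 3.0e-05, adjusted 0.00018. The footprint ratio of Scnn1a to Scnn1g had a fold of 1.17 (R2 0.33) with a peak at ZT18.3, with a permutation p of 0.015, adjusted 0.029. Without replicate 1 the transcript ratio of Scnn1b to Scnn1g passed (adjusted permutation p 0.027) and the footprint ratio of Scnn1a to Scnn1b did not (0.14), and without replicate 2 the reverse held (0.18 and 0.0046). The other 3 ratios had adjusted permutation p-values of 0.071, 0.071 and 0.36. The ratio of Scnn1a to Scnn1g in footprints did not pass without the 2 RPF-seq libraries that stood apart (adjusted permutation p 0.064).

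The wider pathway was taken as 39 genes around ENaC, of which 36 were tested. In RNA-seq 5 of 36 were called, 13.9% against 10.2% of all tested genes, and in RPF-seq 4 of 36, 11.1% against 7.58%. Without the fold limit 22 of 36 passed for transcripts (48.6% of all tested genes), 13 for footprints (30.9%, near the share in the list) and 12 for TE (17.1%). The median fold was 1.19 in RNA-seq and 1.16 in RPF-seq, against 1.20 and 1.18 over all tested genes. Most of the called genes came from the 7 genes of aldosterone and glucocorticoid signalling, 4 of them in each assay.

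Tsc22d3 (Gilz), a glucocorticoid-induced gene that also restrains Nedd4l, had the largest rhythm in the list. Its transcripts went from 24.3 and 21.8 RPKM at ZT04 to 109 and 119 RPKM at ZT14, a fitted fold of 4.37 with a peak at ZT15.7 (adjusted p 1.5e-12, limma), and its footprints had a fold of 5.33 with a peak at ZT15.4. Zbtb16, a further corticosteroid-induced gene, had a fold of 3.31 in RNA-seq (peak ZT13.4) and 2.55 in RPF-seq (ZT14.1). Fkbp5, a chaperone of the glucocorticoid receptor, was called in RPF-seq with a fold of 2.01 and a peak at ZT16.1, and had a fold of 1.45 with an adjusted p of 0.054 in RNA-seq (limma). Sgk1, whose gene is also induced by corticosteroids, peaked at ZT15.98 and ZT15.67 in the 2 assays. No hormone was measured, and the part of corticosteroids in these rhythms was not tested.

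Per1, a clock repressor that is also induced by corticosteroids, ran from 3.04 and 2.56 RPKM at ZT04 to 13.2 and 11.5 RPKM at ZT10 in RNA-seq. Its folds were 4.21 in RNA-seq (peak ZT12.3) and 4.45 in RPF-seq (peak ZT12.9), the adjusted p-values being 2.1e-08 and 1.6e-08 (limma). Prss8, a membrane-bound protease that activates the channel, was called in RNA-seq with a fold of 1.55 and a peak at ZT12.5, from 149 and 135 RPKM at ZT02 to 263 and 222 RPKM at ZT14. Its footprints had a fold of 1.19 and an adjusted p of 0.056 (limma).

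Hsd11b2, the enzyme that inactivates glucocorticoids in aldosterone target cells, had the largest TE rhythm among the called genes of the list. Its transcripts were highest at ZT00, 105 and 103 RPKM, and lowest at ZT20, 41.3 and 51.3 RPKM, a fold of 1.77 with a peak at ZT5.1 (adjusted p 8.2e-04, limma). Its footprints ranged from 160 to 260 RPKM with a fold of 1.19 and a peak at ZT18.5. The TE rhythm had a fold of 2.08 with a peak at ZT17.4 (adjusted p 0.0014, limma). Ywhab, a scaffold protein that holds phosphorylated Nedd4l, was the other gene called in TE, with a fold of 1.54 and a peak at ZT17.2 (adjusted p 0.0012, limma). TE calls were thus 2 of 36, 5.56% against 3.74% of all tested genes.

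Nr3c2, the aldosterone receptor, was low at 8.37 ± 0.87 RPKM in RNA-seq and 5.49 ± 0.65 RPKM in RPF-seq (SD, n = 24), with fitted folds of 1.13 and 1.16 and adjusted p-values of 0.18 and 0.19 (limma). Nedd4, the close relative of Nedd4l, stood at 189 ± 12.8 RPKM in RNA-seq and 221 ± 10.7 RPKM in RPF-seq, with folds of 1.07 and 1.08 and adjusted p-values of 0.37 and 0.12 (limma).

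**Figure D5:**
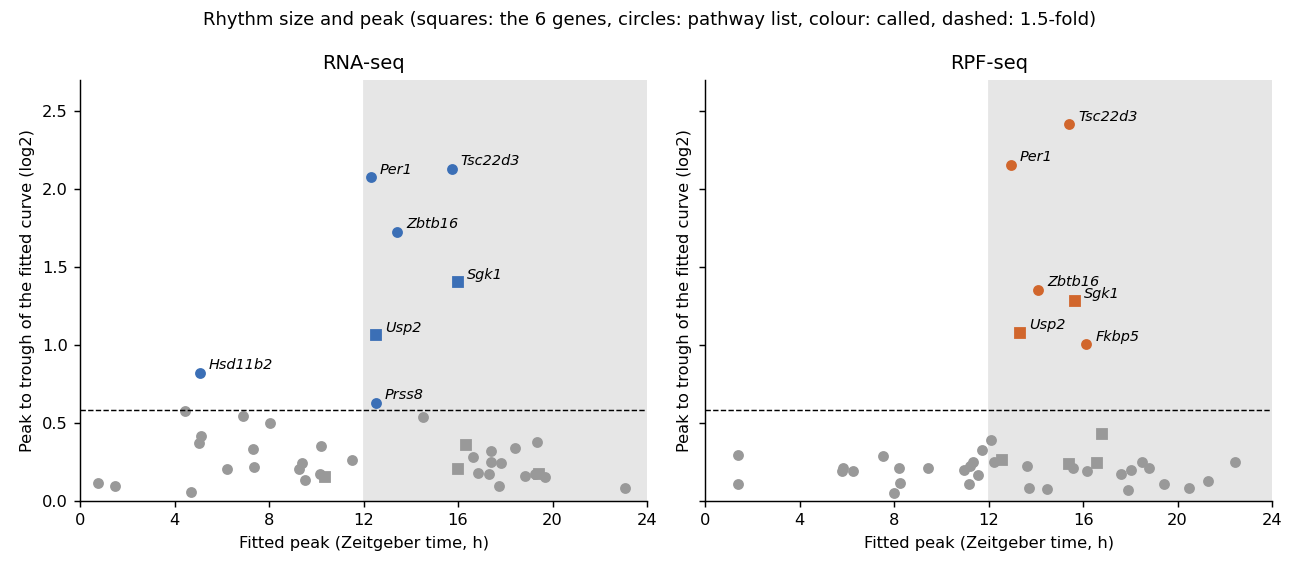
Fitted peak in hours (horizontal) against peak to trough on the log2 scale (vertical) in RNA-seq and RPF-seq, with squares for the 6 genes, circles for the pathway list, colour for called genes and a dashed line at 1.5-fold. Apart from Hsd11b2 at ZT5.1 in RNA-seq, the called genes peak between ZT12.3 and ZT16.1.

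Markers of principal cells differed in the time of their peaks. In RNA-seq 4 of 7 were called, against 10.2% of all tested genes. They were Aqp2 with a fold of 1.72 and a peak at ZT14.8, Aqp3 with 1.57 at ZT11.1, Gata3 with 1.60 at ZT7.4, and Hsd11b2. In RPF-seq 2 of 7 were called, against 7.58% of all tested genes, Aqp2 with 1.67 at ZT15.7 and Avpr2 with 1.70 at ZT20.5. Beyond principal cells, the summed footprint level of 3 thick ascending limb markers had a median of 4139 RPKM in the light (3622 to 4606) and 4926 RPKM in the dark (4255 to 6267). Footprint medians were also higher in the dark for markers of proximal tubule (light 7278, dark 7748 RPKM) and intercalated cells (light 229, dark 241 RPKM). Lower medians in the dark were found for distal convoluted tubule (light 1168, dark 1116 RPKM), podocytes (152 and 132.5 RPKM) and endothelium (181 and 167 RPKM). In each of these types the light and dark ranges overlapped, for intercalated cells 166 to 308 RPKM in the light and 163 to 286 RPKM in the dark. The part of these markers in the results above was not tested.

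The genes most like each of the 6 were taken as the 3 with the highest Pearson r of log2(RPKM + 0.1) over the 24 RNA-seq libraries, a description of libraries that share their depth and scaling. For Usp2 they were Per1 (r 0.96), Coq10b (0.93) and Ppara (0.92), which in the 24 RPF-seq libraries had r of 0.89, 0.88 and 0.92 and were among the 4 genes most like Usp2 there too. Per1 is a core clock gene and Ppara a nuclear receptor of lipid metabolism. For Sgk1 they were Serinc3 (0.95), Tmem248 (0.93) and Ncoa4 (0.92), of which Ncoa4 kept 0.80 in RPF-seq while the others had 0.47 and -0.01.

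For Scnn1g they included Got1 (r 0.86) and Atp5g1 (0.82), with 0.58 and 0.38 in RPF-seq. For Scnn1b they were Myo1c (0.75), Slc4a9 (0.74) and Ncstn (0.74), with 0.77, 0.29 and 0.36 in RPF-seq. For Scnn1a they were Aak1 (0.88), Zfp36l1 (0.85) and Pcbp3 (0.84), with -0.15, 0.29 and 0.05 in RPF-seq. By Spearman's rho 0 of these were among the 3 genes most like Scnn1a. The values include the RNA-seq libraries of ZT10 and ZT12 replicate 2, on which the transcript result for Scnn1a depended. For Nedd4l they included Net1 (0.82) and Ackr3 (0.81), with 0.53 and 0.48 in RPF-seq.

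Among the 6 genes themselves, Scnn1a and Sgk1 had a Pearson r of 0.28 over the 24 RNA-seq libraries and 0.75 over the 24 RPF-seq libraries. Scnn1a and Nedd4l had 0.42 and 0.70, and Scnn1g and Sgk1 had 0.72 and 0.59. The lowest of the 15 pairs in RNA-seq was Nedd4l with Usp2, at -0.17, and these genes had 0.39 in RPF-seq. These values are descriptions from all 24 libraries of each assay, those that stood apart included, and the libraries share their scaling.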

How the data were processed

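The authors made RNA-seq and RPF-seq libraries from the same kidney lysate pools, removed adapters, kept reads by length, aligned to mouse sequences of GRCm38 (TopHat2 2.0.11, Bowtie2 2.2.1 and Cufflinks 2.2.1 per the submitters' processing notes), assigned them to coding sequences and deposited RPKM values scaled by upper quantiles. Only these 48 tables were used. Counts were not used here, no count test was run, and whole reads recovered from the steps between values served to describe depth alone. Of the 1500 lowest genes 98.4% to 98.9% of values per library were whole to within 0.05 reads.

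Samples were grouped by assay and timepoint as the labels give them. Genes listed in both assays with a median of at least 0.5 RPKM in each entered limma (version 3.58.1, R version 4.3.3) as log2(RPKM + 0.1), a scale that understates changes of low genes, and took a moderated F test of 24-h cosine and sine terms with a variance trend. Fold changes are on that scale. Intervals of peak differences use the residual correlation of the assays. Other tests were two-sided sign-flip or permutation tests with 100000 resamples in Python 3.11.15 (numpy 2.4.6, pandas 2.3.3). The pools are separate mice, and p-values of the rhythm tests measure the spread between them around the fitted curve. The sign-flip tests on levels and TE took the pools of all times of day together. Their p-values therefore measure a spread that includes time of day. The 6 genes and all lists were chosen with earlier results of these data known. Genes named were the 6, the pathway genes that were called plus Nr3c2, Hsd11b2, Nedd4 and Per1, and the 3 most similar genes of each, of which 2 are not reported here. The rhythm test was tested on simulated data. Names came from GENCODE (12373 of 12423 identifiers matched). Alternatives comprised a pseudocount of 1 or 0.01, no level filter or one of 2 RPKM, a stricter FDR (0.01), selection by AIC, a 12-h term, time as a factor, quantile normalisation, the replicate number as a block, the omission of every replicate series, library or timepoint in turn, and, chosen after seeing the data, leaving out the 2 libraries of each assay farthest from the fitted curves.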

Additional observations from a re-analysis of the deposited data

Results flagged for a closer look

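TE rhythms, in which the 24-h course of footprints differed from that of transcripts of the same gene by limma's test, passed at any fold in 12 of the 36 tested pathway genes (17.1% of all tested genes), of which 5 are named here by the rule for named genes. The 1.5-fold limit was passed by Hsd11b2 and Ywhab. No pathway gene was called in TE in either replicate series alone. Of all 11863 tested genes, 0 were called without replicate 1 and 2 without replicate 2, so these settings say little about single genes. Hsd11b2 had a TE fold of 2.08 with a peak at ZT17.4 (adjusted p 0.00138). For Ywhab the TE fold was 1.54 with a peak at ZT17.2 (adjusted p 0.00118). Fkbp5 followed with 1.48 and a peak at ZT17.7 (adjusted p 0.00761). Prss8 had a TE fold of 1.30 with a peak at ZT0.7 (adjusted p 0.0112). Tsc22d3 had 1.27 with a peak at ZT13.3 (adjusted p 0.0413).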

How the results depend on the processing

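In the alternatives run, the rhythm calls of Sgk1 and Usp2 in RNA-seq and RPF-seq, and the count of 0 called TE rhythms among the 6 genes, held, with time as a factor adding Scnn1a in RPF-seq (3 called). The number passing an adjusted p of 0.05 at any fold was less steady: in RNA-seq it went from 4 to 2 with time as a factor and from 2 (without replicate 2) to 4 over the leave-outs, and in RPF-seq from 6 to 3 at an FDR of 0.01, to 3 with time as a factor and from 2 (without replicate 1) to 6 over the leave-outs. Without the 2 RNA-seq libraries farthest from the curves, Scnn1a passed in RNA-seq in addition to the 4 (adjusted p 0.011, limma). In TE the number was 1 with the 12-h term, 1 without the libraries farthest from the curves and 0 to 1 over the leave-outs. Of the pathway list, 9 were called in RNA-seq with the 12-h term, 11 with time as a factor and 8 with quantile normalisation in place of 5. Over all tested genes these settings gave 1752, 2291 and 1130 in place of 1210. Replicate leave-outs gave 5 to 5 of the list for transcripts, 2 to 3 for footprints and 0 to 0 for TE. Over all tested genes they gave 722 to 1430, 370 to 853 and 0 to 2. Time as a factor gave 1 of the list in TE, and 98 of all tested genes. Without replicate 1 the neighbouring pairs that differed in level were 4 and without replicate 2 they were 5, in place of 7, and without replicate 1 the difference of Scnn1a from Nedd4l in RNA-seq turned to -0.03 on the log2 scale. The 3 subunit ratio rhythms became 1 in either replicate series, a different ratio in each, and the TE differences between subunits stayed at 3. With the replicate number as a block, 2 of 6 genes were called for transcripts, 2 for footprints and 0 for TE, the pathway list gave 5, 4 and 2, and 4 ratios in place of 3 passed, the added one being Scnn1b to Scnn1g in footprints (adjusted permutation p 0.044). Same-numbered samples of different timepoints had correlations of their deviations from -0.18 to 0.48 in RNA-seq (mean 0.029) and from -0.20 to 0.19 in RPF-seq (mean 0.020), and were not taken as paired.

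Over all tested genes, 1210 calls in RNA-seq became 722, 899 in RPF-seq became 370 and 444 in TE became 0 without replicate 1, and TE calls were 2 without replicate 2. With a pseudocount of 1 they were 781 in RNA-seq and 590 in RPF-seq, with time as a factor 2291 in RNA-seq and 98 in TE, in TE 215 at an FDR of 0.01, 727 by AIC and 271 without ZT20. The 12-h term moved the peak of Sgk1 to ZT14.7 in RNA-seq and ZT14.6 in RPF-seq. Spearman's rho kept 10 of the 18 most similar genes. With 2 pools per timepoint, differences between single timepoints were not tested.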
